A study of Mus musculus with 6 samples.

Results

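The 30 genes described here encode the enzymes of the tricarboxylic acid (TCA) cycle, the entry of pyruvate into it, and the reactions that refill it. They were taken by symbol from a list of genes with these functions, and all 30 were found among the 26214 listed genes. RNA-seq was run on brown preadipocytes from mouse, an immortalized line kept in culture and differentiated to day 7. Cells then received 100 nM rotenone, an inhibitor of NADH dehydrogenase (complex I of the respiratory chain), or the solvent DMSO for 16 h. Both groups had the same medium, with insulin and triiodothyronine from the start and with methylisobutylxanthine, dexamethasone and indomethacin in the first 3 days. The cells are a cultured line and not tissue, and the labels do not say whether they were 1 clone. Each group had 3 deposited libraries, but the 3 rotenone files held identical counts for every gene and were counted as 1 sample. Nothing in the labels says that the replicates were separate cultures. All p-values therefore rest on the spread between 3 DMSO libraries, which may be technical, and assume that the lone rotenone library varies as they do.

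In the TCA cycle, acetyl-CoA made from pyruvate or fatty acids is joined to oxaloacetate to form citrate, which is oxidised stepwise back to oxaloacetate. The reduced carriers NADH and ubiquinol made on the way feed the respiratory chain, NADH at complex I and electrons from succinate at complex II. Brown fat cells are rich in mitochondria and burn fuel through this route to make heat. Anaplerosis is the refilling of the cycle, for example by carboxylation of pyruvate or by entry of glutamate carbon.

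Sequencing depth ran from 26085061 to 29194179 counts per DMSO library and was 21611589 counts in the rotenone library. Levels are given as TMM-scaled CPM, counts scaled to library depth and composition, and a count of 0 (up to 3 counts) allows 0.101 to 0.148 CPM on that scale, counting error only. General fat cell markers were present, with Adipoq (the hormone adiponectin) at 1111 to 1264 CPM in DMSO and 863 CPM with rotenone, and brown fat Ucp1 was at 54.7 to 74.3 and 18.5 CPM. Of 12 general fat cell markers tested 1 rose (Lpl, lipoprotein lipase) and 6 fell, and of 11 brown markers 3 rose (Elovl3, Cox7a1 and Cox8b) and 5 fell. Of the markers of other cell types, 11 of 15 tested preadipocyte and fibroblast genes rose and 1 fell, and the summed level of all 16 was 3902 to 4207 CPM in DMSO and 9498 CPM with rotenone, with Acta2 (smooth muscle actin) at 145 to 163 and 852 CPM. The macrophage genes Ptprc, Adgre1 and Mrc1, the endothelial genes Tie1 and Emcn and the muscle genes Myod1, Myh1, Myh2 and Myh4 had 0 counts in every library. The summed level was 2.36 to 3.57 CPM in DMSO and 15.5 CPM with rotenone for the 6 macrophage genes, 0.187 to 0.623 and 1.03 CPM for the 6 endothelial genes, and 0.824 to 1.38 and 7.19 CPM for the 8 muscle genes. Single genes carried 2 of these sums, since Cd68 alone was at 15.5 CPM with rotenone and the other 5 macrophage genes at 0, and Acta1 gave 6.65 CPM of the muscle sum. The part of these cell type markers in the results below was not tested. In bulk RNA, fewer cells of a type and less RNA per cell cannot be told apart.

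Most of the 30 genes stood modestly higher in the rotenone library, and the pyruvate carrier gene Mpc2 rose furthest. By edgeR's quasi-likelihood test with Benjamini-Hochberg adjustment over all 14709 genes tested, 18 of the 30 rose, 2 fell and 10 did not pass an adjusted p of 0.05. Over all genes tested, 27.6% were called higher and 28.5% lower, 56.1% in all. All 30 passed the filter on low counts. The median log2 fold change of the 30 genes was 0.29, against -0.04 over all genes tested. The changes were small, with a median size of 0.31 on the log2 scale against 0.50 over all genes, and only 3 of the 18 rises reached 1.5-fold. The level with rotenone lay above all 3 DMSO libraries for 25 of the 30 genes, below them for 3 and within their range for 2, whereas 41.5% of all genes lay above and 44.7% below. Together the 30 genes took 1.67%, 1.61% and 1.58% of all counts in the DMSO libraries, in replicate order, and 1.78% with rotenone.

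With a coefficient of variation of 20% assumed for every library in place of the estimated 6.9%, only Mpc2 remained called (1 higher and 0 lower of 30, against 9.57% and 14.0% of all genes, 23.6% together). Scaling by library size only moved the median of all genes to -0.16 and that of the 30 genes to 0.17, with 15 higher and 3 lower against 22.1% and 35.0% of all genes, 57.1% together.

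**Figure D1:**
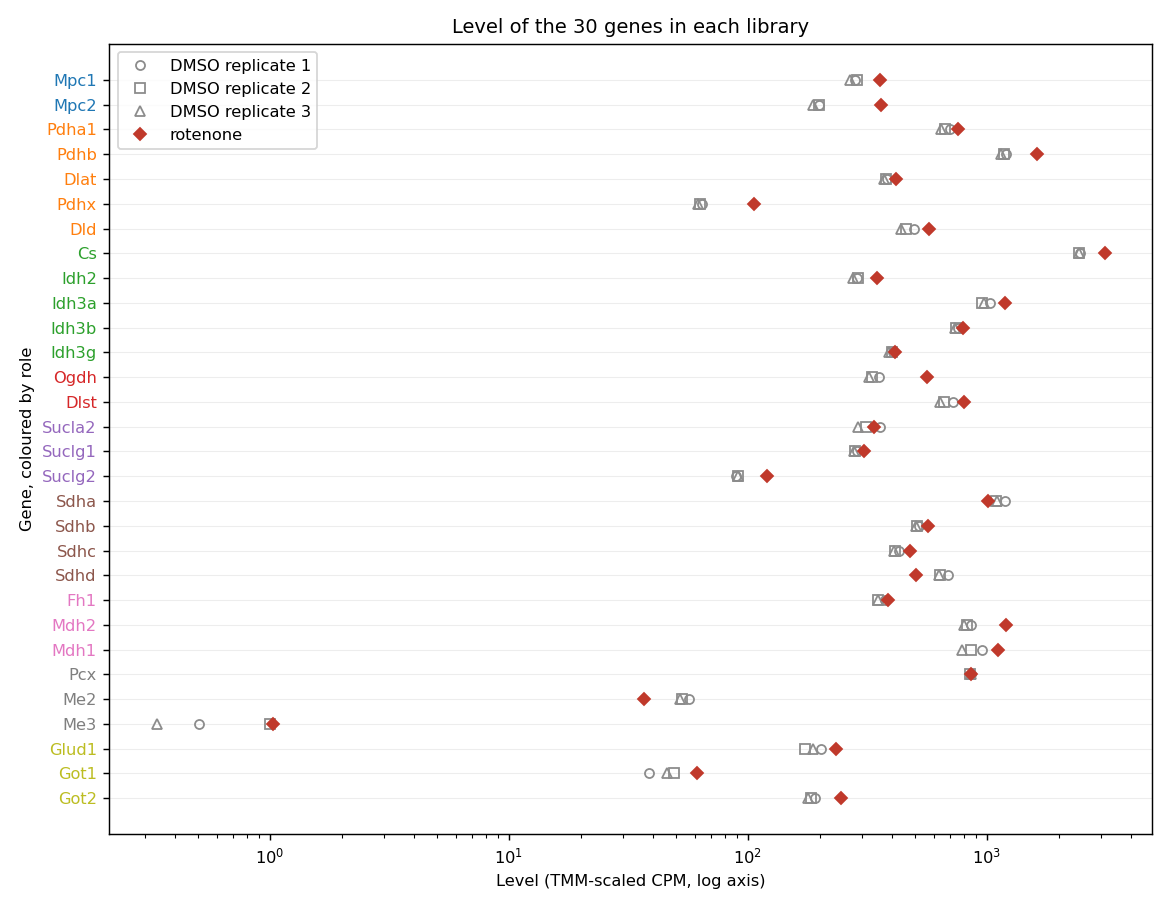
Level of each of the 30 genes (TMM-scaled CPM, log axis) in DMSO replicates 1 to 3 (open grey symbols) and in the rotenone library (red diamonds), with gene names coloured by role. The red diamond lies to the right of all 3 grey symbols for 25 genes and to the left for Sdha, Sdhd and Me2.

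The DMSO libraries also differed among themselves over these genes. DMSO replicate 1 had the highest level of 24 of the 30 genes and replicate 3 the lowest of 23, while medians over all genes differed by less than 0.01 on the log2 scale. The median deviation of the 30 genes from the DMSO mean was 0.04 in replicate 1 and -0.04 in replicate 3. The DMSO coefficient of variation was under 5% for 21 of the 30 genes, and among those above 10 CPM it reached 11.0% for Sucla2 and 12.1% for Got1. Without replicate 1, 22 of the 30 genes were called higher, and without replicate 3, 17.

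The pyruvate carrier is a pair of small proteins, MPC1 and MPC2, that together bring pyruvate across the inner mitochondrial membrane. Mpc2 (chromosome 1, 165460637 to 165481214, GRCm38, plus strand) was at 199, 199.6 and 188 CPM in DMSO (replicates 1, 2 and 3, the order used throughout) and at 359.7 CPM with rotenone. The rotenone level was far outside the DMSO range, a rise of 0.88 ± 0.06 (log2 fold change ± SE, edgeR adjusted p = 1.29e-09) or 1.84-fold, and with a 20% coefficient of variation the adjusted p was 0.03. Its partner Mpc1 was at 281, 286 and 267 CPM in DMSO and 356 CPM with rotenone, a smaller rise of 0.36 ± 0.07. With offsets for transcript length and GC content, described below, the Mpc1 value was 0.13 and its call was lost. Within each library, which needs no scaling, the log2 ratio of Mpc2 to Mpc1 counts was -0.50, -0.52 and -0.51 in DMSO and 0.01 with rotenone. The DMSO ratios spanned 0.02, and the rotenone ratio lay 0.52 above their mean.

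The pyruvate dehydrogenase complex turns pyruvate into acetyl-CoA. Its decarboxylase has an alpha and a beta subunit (Pdha1, Pdhb), its core acetyltransferase is Dlat, Pdhx tethers dihydrolipoamide dehydrogenase to the core, and Dld is that dehydrogenase, shared with other complexes. Of these 5 genes 4 rose and Dlat did not pass (0.14 ± 0.06, edgeR adjusted p = 0.061). Pdhx (chromosome 2, 103021075 to 103073513, GRCm38, minus strand) was at 64.2, 63.1 and 62.0 CPM in DMSO and 106.7 CPM with rotenone, a rise of 0.76 ± 0.07. The 3 DMSO values lay within about 2 CPM of one another. Pdhb was at 1203, 1182 and 1146 CPM in DMSO and 1623 CPM with rotenone and rose by 0.46 ± 0.06, whereas Pdha1 rose by 0.17 ± 0.07, from 642 to 701 CPM in DMSO to 756 CPM. Dld, from 439.8 to 497 CPM to 573 CPM, rose by 0.30 ± 0.07. The call for Pdha1 was lost with library size scaling (0.05) and without DMSO replicate 3. Subunit transcripts differed in proportion between the groups. The log2 ratio of Dlat to Pdhx was 2.57, 2.59 and 2.59 in DMSO and 1.97 with rotenone, and that of Pdha1 to Pdhb was -0.78, -0.81 and -0.84 in DMSO and -1.10 with rotenone.

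Citrate synthase (Cs) joins acetyl-CoA to oxaloacetate, and the isocitrate dehydrogenases oxidise the isocitrate made from citrate, IDH3 with NAD and mitochondrial IDH2 with NADP. Cs was at 2449, 2438 and 2428 CPM in DMSO, the tightest of the 30 genes, and at 3128 CPM with rotenone, a rise of 0.36 ± 0.06. Idh2 rose by 0.30 ± 0.06, from 276 to 288 CPM in DMSO to 349 CPM. The catalytic IDH3 subunit gene Idh3a was at 1031, 959.8 and 975 CPM in DMSO and 1195 CPM with rotenone and rose by 0.27 ± 0.06. The other subunits, Idh3b (0.09 ± 0.06) and Idh3g (0.06 ± 0.06), did not pass, and both values turned negative with library size scaling (-0.03 and -0.06). The calls for Idh2 and Idh3a were lost with the length and GC offsets (0.12 and 0.07). The log2 ratio of Idh3g to Idh3a was -1.34, -1.26 and -1.33 in DMSO and -1.53 with rotenone, outside the DMSO range, while that of Idh2 to Idh3a lay within it (-1.84, -1.74 and -1.82 in DMSO, -1.78 with rotenone).

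The 2-oxoglutarate dehydrogenase complex has the same plan as pyruvate dehydrogenase, with Ogdh as its decarboxylase and Dlst as its core succinyltransferase. Ogdh (chromosome 11, 6291633 to 6356642, GRCm38, plus strand) was at 355, 331 and 321 CPM in DMSO and 563 CPM with rotenone. It rose by 0.74 ± 0.07, or 1.67-fold, and the value was 0.84 with the length and GC offsets. Dlst, at 721, 661 and 640.5 CPM in DMSO and 806 CPM with rotenone, rose by 0.26 ± 0.07, a call lost with library size scaling (0.14). Within libraries, Dlst to Ogdh had a log2 ratio of 1.02, 1.00 and 1.00 in DMSO and 0.52 with rotenone.

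Succinyl-CoA synthetase is the step that makes a nucleoside triphosphate directly. Its alpha subunit (Suclg1) pairs with an ATP-forming beta subunit (Sucla2) or a GTP-forming one (Suclg2). Suclg2 was at 89.7, 91.2 and 91.5 CPM in DMSO and 119.9 CPM with rotenone and rose by 0.40 ± 0.07. Sucla2 was at 359, 312 and 290.4 CPM in DMSO and 336 CPM with rotenone, inside the DMSO range, with a log2 fold change of 0.07 ± 0.10. Suclg1 gave 0.12 ± 0.06. Neither passed, and without DMSO replicate 1 Sucla2 was called higher. The log2 ratio of Suclg2 to Sucla2 was -2.002, -1.77 and -1.67 in DMSO and -1.49 with rotenone, a shift of 0.33 that was smaller than the DMSO range of 0.34.

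Succinate dehydrogenase is complex II of the respiratory chain as well as a cycle enzyme. Sdha carries the flavin and the active site, Sdhb the iron-sulfur clusters, and Sdhc and Sdhd anchor the enzyme in the membrane and hold the ubiquinone site. Its 4 genes moved in both directions, with a median log2 fold change of -0.01. Sdhd (chromosome 9, 50596357 to 50603812, GRCm38, minus strand) was at 689, 641 and 631 CPM in DMSO and 505 CPM with rotenone, below all 3, and fell by 0.37 ± 0.07 (edgeR adjusted p = 0.000136). Sdhc, at 431, 413 and 409.7 CPM in DMSO and 479.6 CPM with rotenone, rose by 0.20 ± 0.06. Sdha was at 1197, 1089 and 1106 CPM in DMSO and 1011 CPM with rotenone, again below all 3, with a log2 fold change of -0.16 ± 0.07 that did not pass (edgeR adjusted p = 0.0505). It was called lower in 9 of 17 alternatives, among them library size scaling (-0.28) and the length and GC offsets (-0.27). Those 9 include the fit that treats the identical rotenone files as independent. Sdhb gave 0.15 ± 0.06 and did not pass (edgeR adjusted p = 0.055). It was called higher in 4 of 17 alternatives, among them DESeq2 and that same fit, and with the length and GC offsets it gave -0.12. The call for Sdhc was lost with library size scaling (0.08) and with the length and GC offsets (0.09). The anchor subunits separated within libraries, with a log2 ratio of Sdhd to Sdhc of 0.68, 0.63 and 0.62 in DMSO and 0.07 with rotenone. For Sdhb to Sdha the log2 ratio was -1.20, -1.09 and -1.13 in DMSO and -0.83 with rotenone.

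Fumarase (Fh1) makes malate, which mitochondrial malate dehydrogenase (Mdh2) oxidises to oxaloacetate, and cytosolic Mdh1 runs the same reaction outside mitochondria in the malate-aspartate shuttle. Mdh2 (chromosome 5, 135778480 to 135790398, GRCm38, plus strand) was at 857, 825 and 800.3 CPM in DMSO and 1201 CPM with rotenone and rose by 0.54 ± 0.06. Mdh1 rose by 0.36 ± 0.08, from 953, 862 and 791 CPM in DMSO to 1119 CPM, and lost its call with the length and GC offsets (0.16). Fh1 gave 0.11 ± 0.07 and did not pass; with library size scaling it gave -0.01. The DMSO spread of Mdh1 was wide, and the log2 ratio of Mdh1 to Mdh2 (0.15, 0.06 and -0.02 in DMSO, -0.10 with rotenone) shifted by 0.17, no more than the DMSO range of 0.17.

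Glutamate and aspartate enzymes link the cycle to amino acids. Glutamate dehydrogenase (Glud1) and the aspartate aminotransferases, mitochondrial Got2 and cytosolic Got1, all rose. Got2 was at 191, 184 and 178 CPM in DMSO and 246 CPM with rotenone, a rise of 0.41 ± 0.07. Got1 was at 38.8, 49.4 and 46.0 CPM in DMSO and 61.4 CPM with rotenone, a rise of 0.46 ± 0.11. Glud1 rose by 0.31 ± 0.08, from 174 to 202 CPM in DMSO to 233 CPM. All 3 calls held with library size scaling and with the length and GC offsets. The log2 ratio of Got1 to Got2 with rotenone (-1.999) lay inside the DMSO range of -2.30 to -1.90.

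Pyruvate carboxylase makes oxaloacetate from pyruvate, and the malic enzymes make pyruvate from malate. None of the 3 mitochondrial ones, Pcx, Me2 and Me3, was called higher, while the cytosolic malic enzyme Me1, counted below among the other enzymes and named after its values were seen, rose by 0.28 ± 0.06 (767 to 789 CPM in DMSO, 947 CPM with rotenone). Pyruvate carboxylase (Pcx), the main anaplerotic enzyme, was at 862, 849 and 859 CPM in DMSO and 860.1 CPM with rotenone, with a log2 fold change of 0.01 ± 0.06 whose sign turned with the scaling (-0.11 by library size). Me2, a mitochondrial malic enzyme, was at 56.6, 53.3 and 52.2 CPM in DMSO and 36.7 CPM with rotenone and fell by 0.56 ± 0.10 (edgeR adjusted p = 6.71e-05). Me3, the other mitochondrial malic enzyme, had only 15, 29 and 9 counts in DMSO and 21 with rotenone, and its difference was not detectable at this depth (0.74 ± 0.72, edgeR adjusted p = 0.4). The log2 ratio of Pcx to Pdha1, the gates by which pyruvate enters as oxaloacetate or as acetyl-CoA, was 0.30, 0.34 and 0.42 in DMSO and 0.19 with rotenone.

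**Figure D2:**
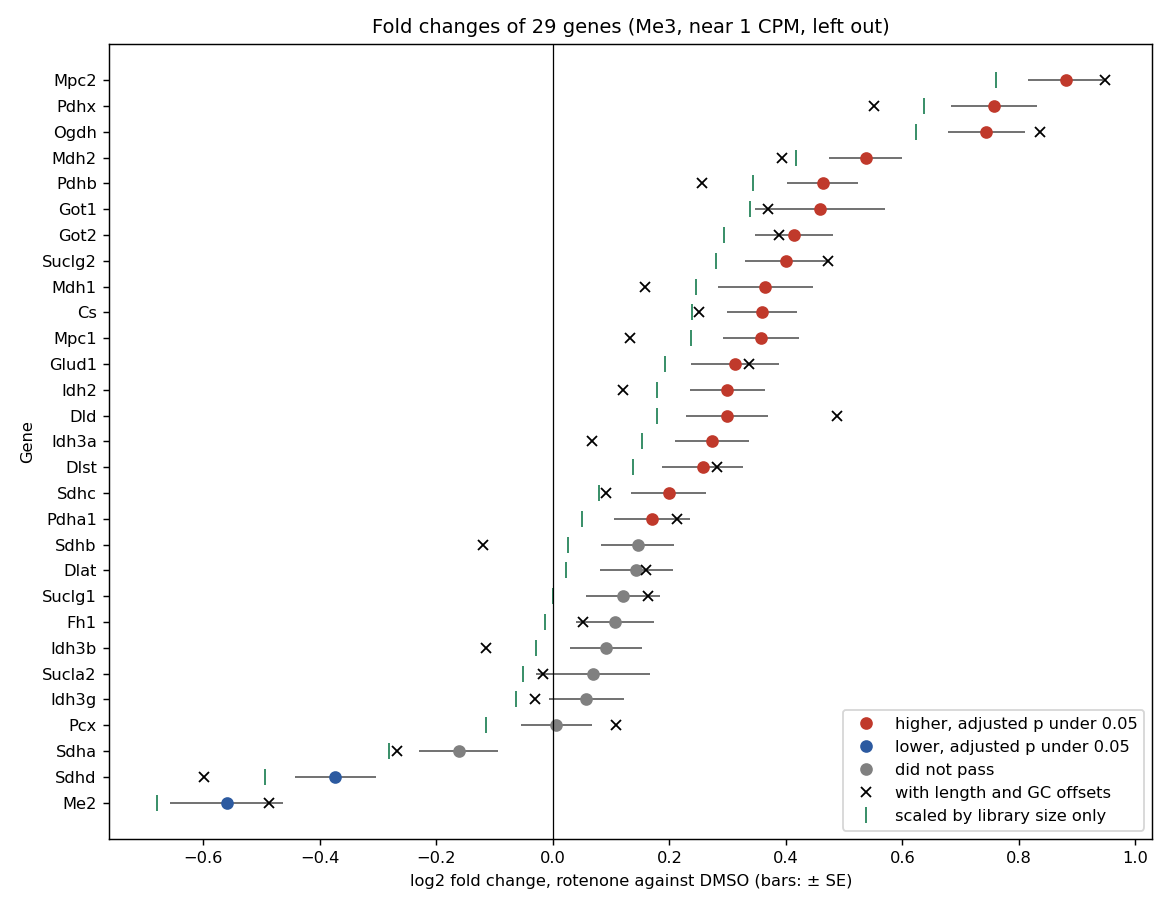
Log2 fold change of 29 of the 30 genes, rotenone against DMSO, as points with ± SE and coloured by the edgeR call at an adjusted p of 0.05; crosses give the value with offsets for transcript length and GC content and green ticks the value with library size scaling. Mpc2 at 0.88 is highest and Me2 at -0.56 lowest, and every green tick lies to the left of its point.

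In all, 14 pairs of these genes were compared within libraries, and in 12 of them the rotenone ratio lay outside the DMSO range. The level of a single gene lay outside it for 86.2% of all genes, so this count is near the background. With 3 libraries against 1 the smallest p that an exact two-sided permutation test can give is 0.25, so none of these shifts can pass that test at 0.05, and no other test was run on the ratios. Among pairs with both genes above 10 CPM, the shift was furthest from 0 for Dlat to Pdhx (-0.61), Sdhd to Sdhc (-0.57), Mpc2 to Mpc1 (0.52) and Dlst to Ogdh (-0.49), each with a DMSO range of at most 0.055. The ratio of Me2 to Me3 shifted by -1.44 over a DMSO range of 1.49 and rests on few Me3 counts.

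**Figure D3:**
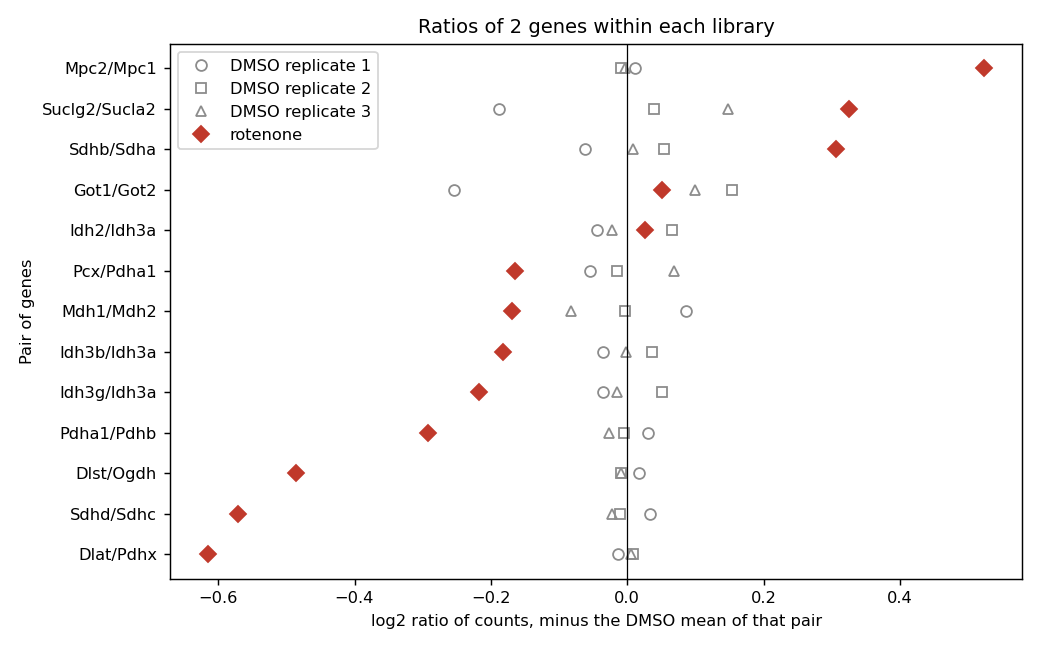
Log2 ratio of the counts of 2 genes in each library, minus the DMSO mean of that pair, for 13 pairs (Me2/Me3 is left out for its low counts); open grey symbols are DMSO replicates 1 to 3 and red diamonds the rotenone library. The rotenone ratio stands far outside a narrow DMSO range for Mpc2/Mpc1, Dlst/Ogdh, Sdhd/Sdhc and Dlat/Pdhx, and inside it for Got1/Got2 and Idh2/Idh3a.

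Fold changes varied with transcript length over all genes. Taking the longest annotated transcript of each gene, the median log2 fold change was 0.24 in the shortest length decile of all genes and -0.27 in the longest. The 30 genes were somewhat shorter than the rest, with a median of 2608 nucleotides against 3218.5. In the 6 deciles with 3 or more of them, their median exceeded that of all genes by amounts from small (0.15 against 0.08 in the second) to wide (0.44 against -0.10 in the seventh). With offsets per library from the medians of 8 by 8 bins of length and GC content, 15 of the 30 genes were called higher and 3 lower, against 28.7% and 26.3% of all genes (55.0% together), and their median was 0.16. Mpc1, Idh2, Idh3a, Sdhc and Mdh1 lost their calls there, Suclg1 and Dlat were called higher, and Sdha was called lower beside Sdhd and Me2. Whether these offsets remove a technical effect or a real one was not tested.

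Levels of different genes can be compared only per length, and the order depended on the length used. By the longest transcript, DMSO levels ran from 0.137 CPM per kb for Me3 and 16.1 for Me2 to 515 for Mdh2, 531 for Sdhd and 812 for Cs. By the median transcript length, Sdha (2170 CPM per kb) and Pdhb (1828) were highest. Me3, Me2, Got1 and Pdhx were the 4 lowest by either length.

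The gene that moved more was taken from each of the 4 pairs above 10 CPM with the largest shift (Mpc2, Pdhx, Ogdh and Sdhd). Promoters are shown for these genes and for Mdh2 and Sdha, which are among the others whose windows hold a searched motif. Each is the 250 bases before the first listed start site in RefSeq (GRCm38.p6), on the gene's own strand, and 27 of the 30 genes had an entry (all but Idh3a, Sdhc and Me2). Capitals mark matches on either strand to GCGCA, any base and GCGC in a row, the site of the nuclear respiratory factor NRF1, which drives many mitochondrial genes, or to TGACGTCA, the cyclic AMP response element bound by CREB and ATF factors.
Mpc2, chr1:165461010-165461259, plus strand: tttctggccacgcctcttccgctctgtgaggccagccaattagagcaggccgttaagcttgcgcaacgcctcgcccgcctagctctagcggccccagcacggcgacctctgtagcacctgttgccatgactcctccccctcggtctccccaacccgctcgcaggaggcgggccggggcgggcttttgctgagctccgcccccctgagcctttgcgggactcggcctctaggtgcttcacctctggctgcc
Pdhx, chr2:103073514-103073763, minus strand: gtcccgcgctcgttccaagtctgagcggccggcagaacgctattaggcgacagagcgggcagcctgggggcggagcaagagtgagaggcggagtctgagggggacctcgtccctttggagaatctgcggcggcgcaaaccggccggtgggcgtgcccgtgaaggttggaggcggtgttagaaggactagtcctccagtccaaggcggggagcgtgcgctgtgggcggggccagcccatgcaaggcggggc
Ogdh, chr11:6291347-6291596, plus strand: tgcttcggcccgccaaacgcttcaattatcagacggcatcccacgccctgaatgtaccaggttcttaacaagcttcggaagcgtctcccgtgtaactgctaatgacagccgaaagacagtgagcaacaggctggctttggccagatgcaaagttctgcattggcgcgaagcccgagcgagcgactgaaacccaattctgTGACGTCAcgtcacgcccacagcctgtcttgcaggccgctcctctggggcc
Mdh2, chr5:135778399-135778648, plus strand: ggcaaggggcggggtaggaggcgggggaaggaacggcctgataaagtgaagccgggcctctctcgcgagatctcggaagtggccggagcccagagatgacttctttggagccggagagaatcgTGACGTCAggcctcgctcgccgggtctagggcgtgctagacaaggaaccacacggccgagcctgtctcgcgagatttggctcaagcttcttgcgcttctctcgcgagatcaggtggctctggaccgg
Sdhd, chr9:50603850-50604099, minus strand: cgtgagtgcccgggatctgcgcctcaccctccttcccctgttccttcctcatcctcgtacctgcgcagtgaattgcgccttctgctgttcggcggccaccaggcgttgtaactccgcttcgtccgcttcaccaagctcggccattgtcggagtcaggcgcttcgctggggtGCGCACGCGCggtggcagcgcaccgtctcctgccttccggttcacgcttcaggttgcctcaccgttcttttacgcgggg
Sdha, chr13:74350241-74350490, minus strand: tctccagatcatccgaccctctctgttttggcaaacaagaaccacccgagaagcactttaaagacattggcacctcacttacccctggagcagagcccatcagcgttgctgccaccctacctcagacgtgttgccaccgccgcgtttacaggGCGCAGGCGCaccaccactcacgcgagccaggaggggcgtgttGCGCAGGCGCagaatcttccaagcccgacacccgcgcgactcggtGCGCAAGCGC
NRF1 matches were found before Sdha (3 matches), Sdhd and Sucla2, that is in 11.1% of the promoters of the 27 genes and 8.12% of those of 11418 genes tested. The cyclic AMP element was found before Ogdh and Mdh2, in 7.41% against 2.67%. AAGGTCA, bound by estrogen-related receptors, was found before Got1 alone (3.7% against 2.75%), and TGATGNAA, a form of the site of ATF4 dimers, before Got1 and Me3 (7.41% against 1.99%). No window of the 27 genes matched ACGTGC, one form of the hypoxia response element, CCGGAAGT of ETS factors or ATGGCGGC of YY1. Of the tested genes, 6.83%, 5.73% and 1.89% had such a match. Shorter and other forms of the hypoxia response element were not searched. The windows of Sucla2, Got1 and Me3, which also held matches, are not printed. No printed sequence held matches to both motifs. These are letter matches only.

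Of the 30 genes, 9 (30%) had a protein-coding gene starting head to head on the other strand within 1000 bases, against 10.8% of 12937 other protein-coding genes tested. Such partners share the window between their starts but did not always move alike. Sdhd fell, while Timm8b, a mitochondrial import chaperone whose start lies 98 bases away, was at 111, 109.96 and 111 CPM in DMSO and 163 CPM with rotenone and rose by 0.55 ± 0.07. Dlst rose, while Prox2, a homeobox gene 74 bases away, was at 14.1, 14.5 and 14.3 CPM in DMSO and 1.18 CPM with rotenone and fell by 3.59 ± 0.25. Mpc2 rose, while Dcaf6, 162 bases away, fell by 0.29 ± 0.10. Next to Sdha, Ccdc127 fell by 0.41 ± 0.08, and next to Idh3g, Ssr4, a subunit of the translocon-associated protein complex, rose by 0.50 ± 0.07. Apip, next to Pdhx, gave 0.15 ± 0.11, Shld2, next to Glud1, gave -0.17 ± 0.16, and neither passed. Styxl1, next to Mdh2, was near 1 CPM in DMSO. These partners were found by position, not by a rule on values.

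Counts of some genes are less certain. Idh3b, Mdh1, Pdha1, Mpc1 and Pcx each overlap another tested gene (Nop56, Wdpcp, Map3k15, 4930506C21Rik and Lrfn4) on the opposite strand. Whether counting used strand is not stated in the labels or files, so reads from such partners cannot be told apart. Reads from processed pseudogenes could also be shared, since how multi-mapped reads were counted is not given.

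The kinases and phosphatases that switch pyruvate dehydrogenase off and on are its main regulators, and their transcripts were lower. Of 7 genes, 5 fell and none rose, against 28.5% and 27.6% of all genes, with a median log2 fold change of -0.55. Only Pdk1 and Pdpr passed with a 20% coefficient of variation, where 23.6% of all genes did. The kinase gene Pdk1, a target of hypoxia-inducible factor, was at 555, 519 and 526 CPM in DMSO and 67.8 CPM with rotenone and fell by 2.98 ± 0.08. Pdk3 fell by 0.78 ± 0.12, from 31.0 to 32.9 CPM in DMSO to 18.7 CPM. Pdk2 (-0.09 ± 0.08) and Pdk4 (-0.15 ± 0.07) did not pass, although both were called lower with library size scaling. The opposing phosphatases fell too, Pdp2 by 0.55 ± 0.10, Pdp1 by 0.50 ± 0.17 and the phosphatase regulator Pdpr by 1.11 ± 0.13. The Pdp1 call was lost in 6 of 17 alternatives, among them DESeq2, the length and GC offsets (-0.39) and the fit without DMSO replicate 3.

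More of the other enzymes around the cycle fell than rose. Of 23 tested, 5 rose and 13 fell, with a median of -0.27, where 27.6% of all genes rose and 28.5% fell. With a 20% coefficient of variation 0 rose and 4 fell, against 9.57% and 14.0% of all genes. Lactate dehydrogenase A (Ldha), which takes pyruvate away from mitochondria, fell by 2.17 ± 0.07, from 3798, 3838 and 3803 CPM to 844 CPM. Cytosolic Idh1 was at 353, 334 and 319.8 CPM in DMSO and 143 CPM with rotenone and fell by 1.23 ± 0.08, beside the rise of mitochondrial Idh2. The glutaminase gene Gls2 fell by 1.54 ± 0.38 from about 3 CPM, and Pcca, a subunit of propionyl-CoA carboxylase, fell by 0.90 ± 0.08. Among the rises was the mitochondrial phosphoenolpyruvate carboxykinase Pck2, at 255, 275 and 263 CPM in DMSO and 439 CPM with rotenone, which rose by 0.73 ± 0.06. Pck2 was named after its values were seen.

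Of 7 tested mitochondrial carriers of cycle intermediates (27.6% of all genes rose and 28.5% fell), 1 rose and 1 fell, with a median of -0.004. These were the paralogous aspartate-glutamate carriers of the malate-aspartate shuttle, Slc25a12, at 4.42, 6.89 and 6.25 CPM in DMSO and 9.31 CPM with rotenone (a rise of 0.67 ± 0.24), and Slc25a13, at 5.23, 4.78 and 4.98 CPM in DMSO and 2.46 CPM with rotenone (a fall of 1.02 ± 0.28). Neither passed with a 20% coefficient of variation, where the 1 call was Slc25a18 (8, 13 and 7 counts in DMSO, 0 with rotenone), and the Slc25a12 call was lost with library size scaling and DESeq2.

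Cofactor and assembly genes of these enzymes were divided. Of 29 tested, 12 rose and 9 fell, with a median of 0.00, where 27.6% of all genes rose and 28.5% fell. With a 20% coefficient of variation 2 rose and 5 fell, against 9.57% and 14.0% of all genes. Bola3 and Fdx2, which act in iron-sulfur cluster assembly, rose by 1.03 ± 0.08 and 0.97 ± 0.11; they were named after their values were seen. Among called genes at 1 CPM or more, the 4 largest changes by size were falls. They were of Pank1, a pantothenate kinase that starts coenzyme A synthesis (-1.65 ± 0.14), and of the iron-sulfur assembly factor Iba57 (-1.40 ± 0.19). The others were of the lipoate synthesis gene Lipt2 (-1.37 ± 0.33) and of Slc25a42, the mitochondrial coenzyme A carrier (-1.34 ± 0.10).

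**Figure D4:**
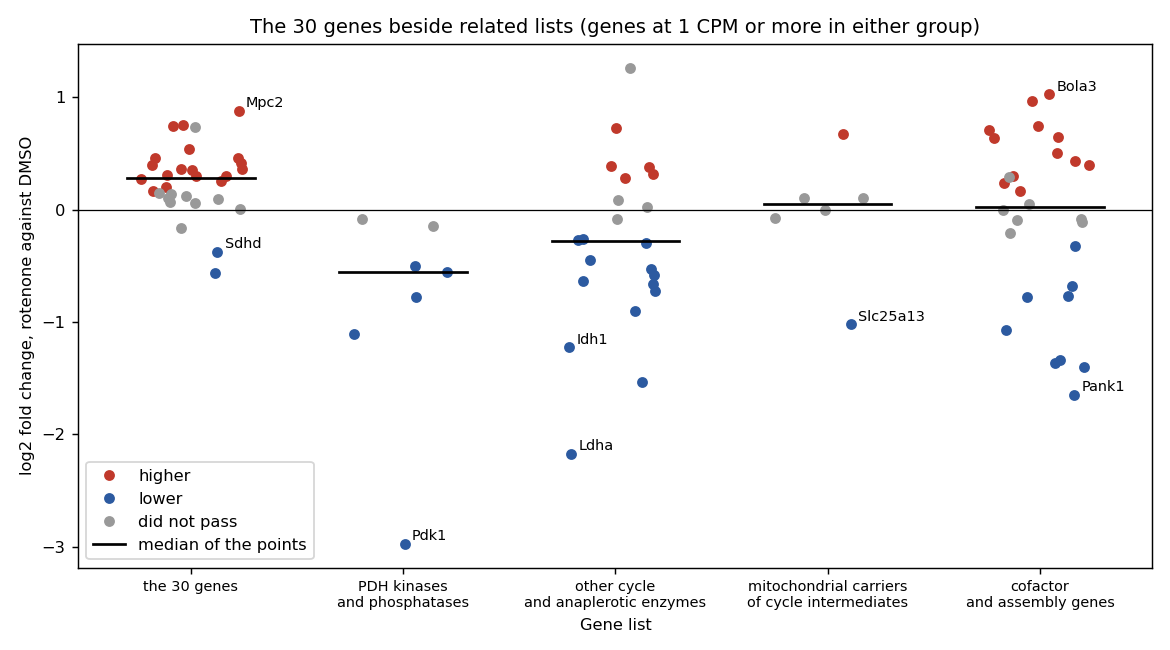
Log2 fold change, rotenone against DMSO, of the 30 genes and of the related genes at 1 CPM or more in either group, coloured by the edgeR call at an adjusted p of 0.05, with a black line at the median of the points in each list. The 30 genes lie mostly between 0 and 0.9, Pdk1 (-2.98) and Ldha (-2.17) are the lowest points, and the cofactor and assembly genes spread on both sides of 0.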

How the data were processed

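Gene expression was measured by RNA-seq, with RNA taken by Trizol and libraries made with a NEBNext Ultra RNA kit, per the labels' protocols. The deposited files hold whole-number counts per gene symbol, not normalized. TopHat2 and build mm10 were used, per the submitters' processing notes. No source used here gives the counter, annotation or strand setting. Identical files of one group entered once. Counts were TMM-scaled, filtered with filterByExpr and tested with edgeR 4.0.16 (robust quasi-likelihood F test, 2 residual degrees of freedom, R 4.3.3), adjusted by Benjamini-Hochberg over all genes tested. The SE was taken as the log2 fold change over the root of its F value. Levels are TMM-scaled CPM; ratios within a library use counts plus 0.5. Transcript lengths and positions are from GENCODE M21 (GRCm38), with lengths for 14216 genes. Alternatives used limma 3.58.1 (voom), DESeq2 1.42.0, other scalings, filters and thresholds, and omitted libraries. The scripts were tested on simulated counts. The 30 genes, the related lists and the pairs were chosen with earlier results of these data known. Named from related lists were all pyruvate dehydrogenase regulators and up to 4 largest called changes at a mean of at least 1 CPM. A few results are not reported here.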

Additional observations from a re-analysis of the deposited data

How the results depend on the processing

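Of the 17 alternatives, 2 moved most counts of calls, a test against a 1.5-fold change and an assumed coefficient of variation of 20%. Over all genes the first left 1203 higher and 1731 lower and the second 1408 and 2063, and of the 30 genes 3 and 0, and 1 and 0. Of the pyruvate dehydrogenase regulators each left 2 lower, and of the other cycle and anaplerotic enzymes 1 higher and 4 lower, and 0 and 4. Of the cofactor and assembly genes the first left 3 higher and 7 lower and the second 2 higher and 5 lower. Among the carriers the count of higher genes was 0 with library size scaling, an adjusted p of 0.01, the 1.5-fold test, DESeq2 and the 20% coefficient of variation, 3 with every file treated as independent and 2 with length and GC offsets; the count of lower genes was 3 with library size scaling, 0 with the 1.5-fold test, 2 with limma-voom and 4 with length and GC offsets. The median of the 30 genes was 0.24 with upper quartile scaling, 0.17 with library size scaling and 0.16 with length and GC offsets. Reversed signs, all of values that had not passed, came with library size scaling for Idh3b (-0.029), Idh3g (-0.0632), Sucla2 (-0.0506), Suclg1 (-2.71e-05), Fh1 (-0.0134) and Pcx (-0.11). They came with length and GC offsets for Idh3b (-0.12), Idh3g (-0.0303), Sucla2 (-0.0172) and Sdhb (-0.12), and for Pcx with upper quartile scaling (-0.0371), a filter of 1 CPM (-0.00202) and every file treated as independent (-0.00676). The ratio of Got1 to Got2 shifted by -0.0759 without DMSO replicate 1 and 0.128 without replicate 2, against 0.05 with all. For these the cause was not tested. Over the 51 named genes and all alternatives, 755 values kept direction and call, 68 lost the call, 30 gained it and 13 reversed. No paired analysis was possible because the 3 rotenone files are 1 library. With 1 rotenone library, its own spread is unknown, and at 9 to 29 counts Me3 limits what can be said of it.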
